A study of Rattus norvegicus with 6 samples.

Results

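10 genes of the Toll-like receptor (TLR) and NF-κB pathway were looked up by their exact symbol in a table of 33022 loci from rat liver, and 9 of them were found. They were the receptors Tlr2 and Tlr4, the co-receptor Cd14, the adaptor Myd88, the kinases Ikbkb and Map3k14, the NF-κB subunit genes Nfkb1 and Rela, and the inhibitor Nfkbia. The tenth listed gene, Irak1, carried a joined symbol that it shared with a microRNA, and its values are given apart. All 9 symbols occurred on 1 locus each, and none of these loci overlapped another. Levels are in FPKM (fragments per kilobase of transcript, scaled by 1 factor per library), so that a level is relative within its library. Averaged over the 6 libraries, 8 of the 9 genes reached 1 FPKM. Map3k14 lay just under that value, with a mean of 0.978 FPKM, and was kept.

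The livers came from male obesity-prone Sprague Dawley (op-SD) rats of 160 to 190 g at the start, which had free access for 2 weeks to TD 08485, the control diet (CD), or to TD 88137, the Western diet (WD), which is rich in fat and sucrose. All rats were fasted overnight and refed their own diet shortly before the left liver lobe was taken. Total RNA and RNA of a light and a heavy sucrose gradient fraction were sequenced for each diet, where light stands for mRNAs with 3 or fewer ribosomes and heavy for those with 4 or more. RNA of 3 rats was pooled for each library, so that each of the 6 groups is a single library. No value therefore has a replicate and no test between the diets was possible.

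Toll-like receptors sense microbial products such as lipopolysaccharide and lipoproteins, which reach the liver through the portal blood. CD14 hands lipopolysaccharide on to TLR4, and the activated receptors recruit the adaptor MyD88 and kinases of the IRAK family. This leads to activation of the IκB kinase complex, which marks the inhibitor IκBα (encoded by Nfkbia) for breakdown and so frees NF-κB dimers such as the one of RelA with the product of Nfkb1. NF-κB in turn drives transcription of its own inhibitor. In liver, the resident macrophages (Kupffer cells) are the best known responders, and hepatocytes carry the pathway as well.

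The decameric κB consensus, the DNA element that NF-κB dimers bind, was looked for on both strands of the promoters of these genes, because Nfkbia, Nfkb1 and Tlr2 are known to be NF-κB targets themselves. Promoters were RefSeq windows of 300 bases on the rat assembly GRCr8, with 250 bases before and 50 bases after the annotated start. An entry existed for 9 of the 10 listed genes, the one without being Ikbkb. The consensus occurred in 3 of these 9 windows, and in 4.18% of all 33469 rat promoters of that length. The 30 bases around each match are shown 5′ to 3′ on the strand of the gene, with the matched bases in capitals.
Tlr2 (chr2:171504743-171504772, minus strand): aggcccttgGGGGAATTCCCatacggagcc
Nfkb1 (chr2:226805440-226805469, minus strand): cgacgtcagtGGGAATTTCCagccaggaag
Nfkbia (chr6:78597084-78597113, minus strand): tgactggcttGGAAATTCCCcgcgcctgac
In Tlr2 the capitals hold 2 overlapping matches that end 195 bases before the start, and the latter of them reads the same on both strands. The match in Nfkbia ended 21 bases before the start and lay on the opposite strand of the gene, and that in Nfkb1 began just after the start, with 3 bases between. The other windows searched (Tlr4, Cd14, Myd88, Irak1, Map3k14 and Rela) did not hold these letters. A match is a stretch of letters and not evidence that a factor was bound in these livers.

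All 9 genes were low to moderate in level, and few sequenced fragments stood behind each value. The number of fragments was inferred from the steps in which FPKM values occur, as the processing notes describe. Over all 6 libraries, Rela had 302 inferred fragments, Myd88 176, Nfkb1 169, Ikbkb 154, Nfkbia 94 and Cd14 90. Tlr4, Map3k14 and Tlr2 had 26, 22 and 16. The 95% intervals given with ratios follow from these numbers and cover counting error only, without the variation between rats or between library preparations.

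**Figure D1:**
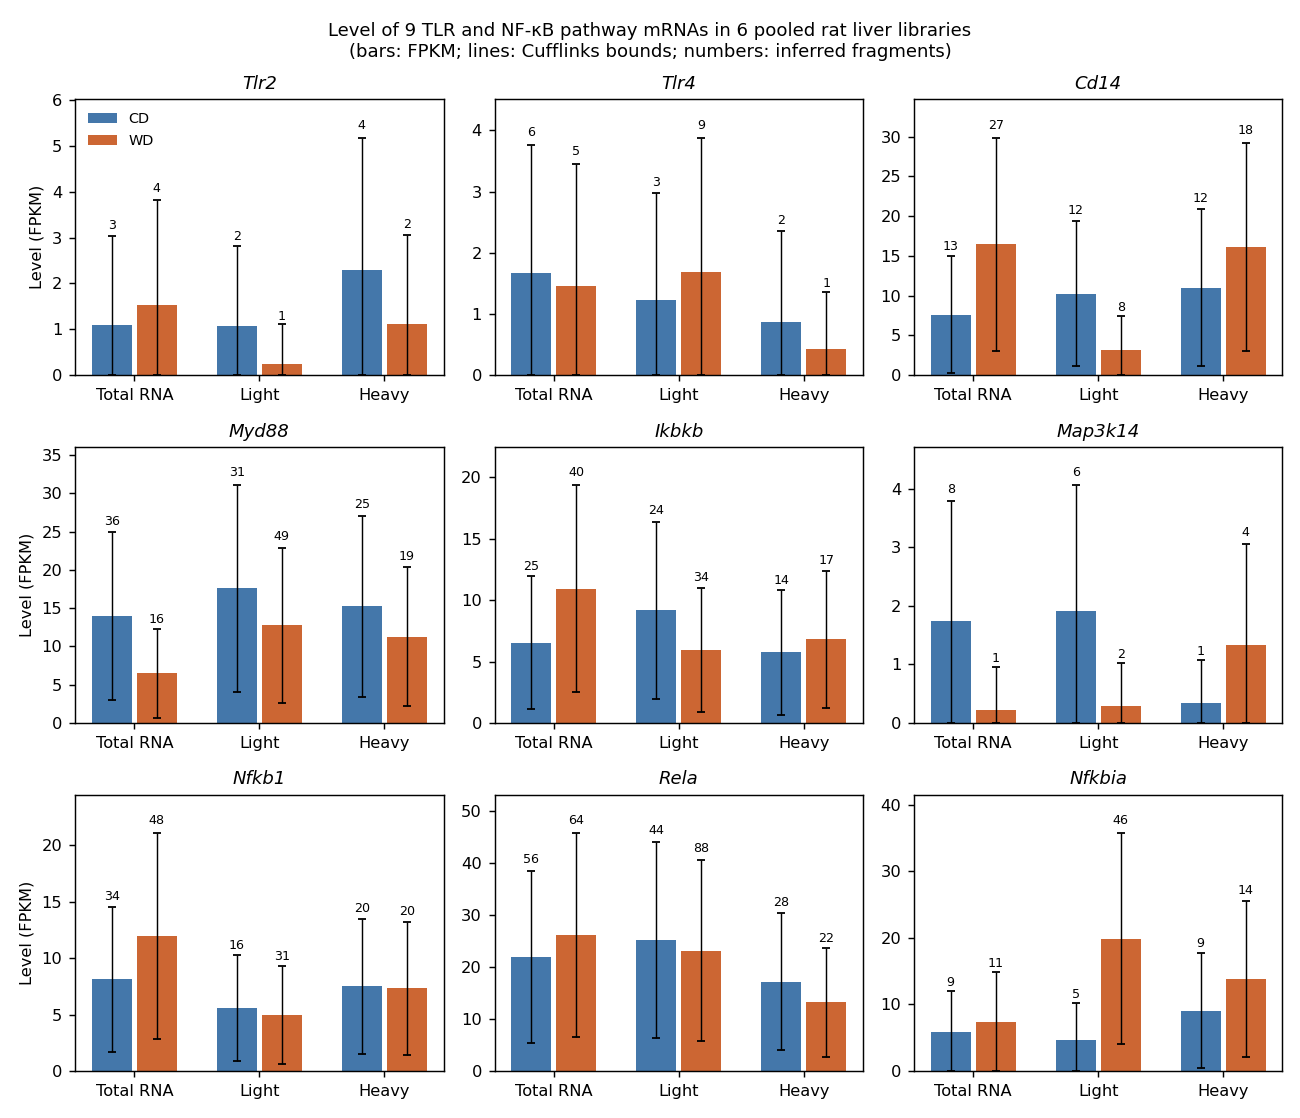
Level of each of the 9 mRNAs in FPKM (vertical axis, starting at 0 and scaled for each gene) in total RNA, the light fraction and the heavy fraction of the CD and WD livers. Bars are the single libraries, lines are the bounds that Cufflinks gives and the digits above are inferred fragments. Rela reached 26.1 FPKM, while Tlr2, Tlr4 and Map3k14 stayed at or under 2.30 FPKM.

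Rela was the most abundant of the 9 mRNAs in 5 of the 6 libraries, with a mean level of 21.1 FPKM. It was followed by Myd88 with a mean of 12.9 FPKM, Cd14 with 10.8, Nfkbia with 10.1, Nfkb1 with 7.58 and Ikbkb with 7.52 FPKM, while Tlr2 (1.23 FPKM) and Tlr4 (1.22 FPKM) stood far below, beside Map3k14. In the WD heavy fraction Cd14 was highest. Neighbors in this order could not be separated, since the Cufflinks bounds of all 8 neighboring pairs overlapped in every library. The lower bound of Rela lay above the upper bounds of Tlr2, Tlr4 and Map3k14 in the total RNA and light fraction libraries of both diets. The summed level of the 9 mRNAs was 68.3 FPKM in CD and 82.5 FPKM in WD total RNA, and between 69.2 and 76.6 FPKM in the fractions.

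Across the 9 genes, WD and CD livers differed in both directions in total RNA, with Cd14 higher and Myd88 and Map3k14 lower in the WD library. The median log2 ratio of WD over CD in total RNA (abundance) was 0.35, beside 0.022 over the 10201 named loci that averaged 1 FPKM or more. The level was higher in WD for 6 genes and lower for 3. A ratio of at least 1.5 was found for 2 of the 9 (Cd14 and Ikbkb; 17.7% of all loci) and one of at most 0.75 for 2 (Myd88 and Map3k14; 22.7% of all loci). The counting interval of the ratio lay above 1 for 1 gene (Cd14; 2.87% of the loci for which it could be computed) and below 1 for 2 genes (Myd88 and Map3k14; 2.81%). The other 6 intervals included 1. The 36 intervals for ratios between the diets (9 genes, 4 comparisons) were not adjusted for their number.

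**Figure D2:**
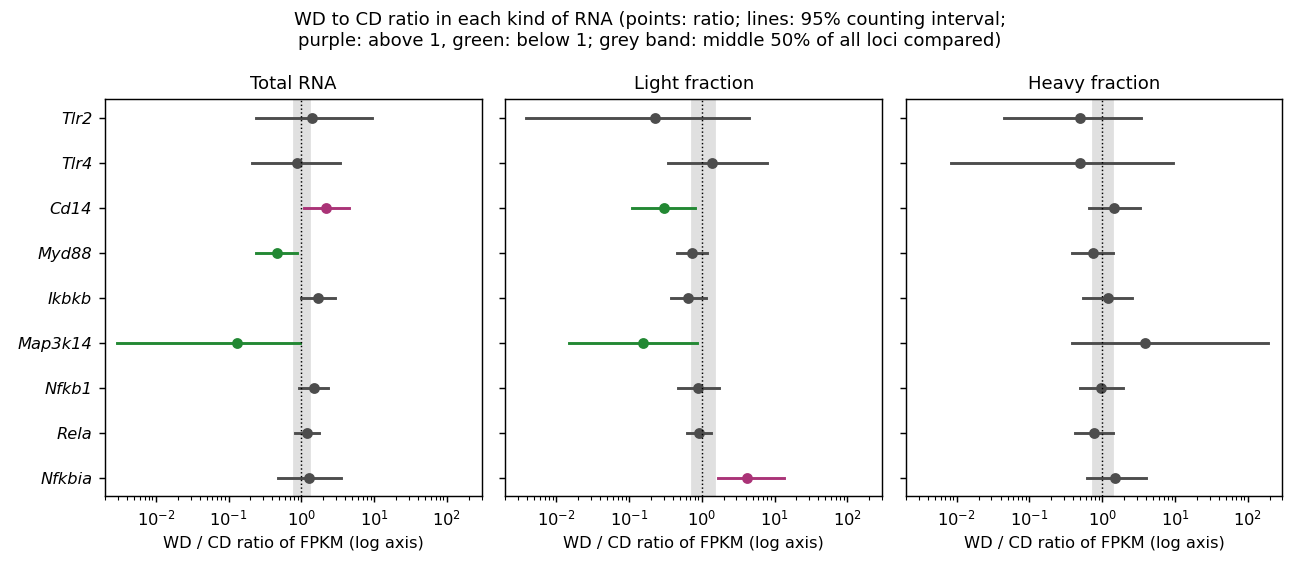
Ratio of WD to CD FPKM for each gene (points, log axis) with its 95% counting interval (lines), in total RNA, the light fraction and the heavy fraction. The grey band holds the middle 50% of all loci compared. Intervals that did not include 1 are colored, and they belonged to Cd14, Myd88 and Map3k14 in total RNA, to Cd14, Map3k14 and Nfkbia in the light fraction and to no gene in the heavy fraction.

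Cd14, the lipopolysaccharide co-receptor (Rnor_6.0, 18:29560364-29562153), differed between the diets in total RNA and in the light fraction, in opposite directions. In total RNA its level was 7.59 FPKM in CD and 16.5 FPKM in WD, from 13 and 27 inferred fragments, a ratio of 2.17 (95% interval 1.08 to 4.58). In the light fraction the level was 10.3 FPKM in CD and 3.14 FPKM in WD, from 12 and 8 fragments, a ratio of 0.307 (0.109 to 0.816). The WD library was thus the higher of the pair in total RNA and the lower in the light fraction. In the heavy fraction it was 11.0 FPKM in CD and 16.1 FPKM in WD, from 12 and 18 fragments, a ratio of 1.46 with an interval of 0.667 to 3.33. In the WD light fraction 1 fragment was worth less than in the others, so that 8 fragments there stand for a lower level than 12 in CD.

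Markers of Kupffer cells were measured beside Cd14, since macrophages are a known source of it. All 11 markers on the list were found, and their summed level was 115 FPKM in CD and 142 FPKM in WD total RNA. It was 100 FPKM in CD and 118 FPKM in WD for the light fraction, and 165 and 202 FPKM for the heavy fraction. In total RNA 8 of the 11 were higher in WD, 2 were lower, and Timd4 was listed at 0 in every library. Cd68 was at 5.05 FPKM in CD and 12.3 FPKM in WD total RNA and Marco at 12.0 and 19.7 FPKM, whereas C1qb was at 11.9 and 6.22 FPKM. In the light fraction the marker sum was higher in WD on the deposited scale while Cd14 was lower. Single markers went both ways there, with Clec4f at 7.41 FPKM in CD and 20.4 FPKM in WD and Csf1r at 21.6 and 15.9 FPKM. With all libraries brought to 1 common sum over named loci, light fraction ratios of WD to CD are multiplied by 0.783. The order of the 2 marker sums turns on that scale. Of 6 markers of neutrophils and monocytes, 4 were found, and all 4 were listed at 0 in every library but the CD light fraction, where their sum was 0.728 FPKM. What the share of these cells contributes to the Cd14 values was not tested, and in such bulk RNA fewer cells of a type cannot be told apart from less RNA per cell. Other cell types of the liver also had higher marker sums in WD total RNA. The markers of sinusoidal endothelium summed to 127 FPKM in CD and 164 FPKM in WD, with all 5 found higher in WD, and those of stellate cells to 42.2 and 51.8 FPKM, with 4 of 5 higher. The hepatocyte markers summed to 68854 FPKM in CD and 62294 FPKM in WD total RNA, with 2 of 6 higher in WD and 4 lower. Most of that sum was albumin mRNA, at 47108 FPKM in CD and 43677 FPKM in WD.

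Both Toll-like receptors on the list were near the limit of detection. Tlr2, the receptor of bacterial lipoproteins (2:182840726-182846061), whose promoter holds the overlapping κB matches shown above, was at 1.10 FPKM in CD and 1.53 FPKM in WD total RNA, from 3 and 4 inferred fragments. In the light fraction it was at 1.07 and 0.246 FPKM, from 2 fragments and 1, and in the heavy fraction at 2.30 and 1.12 FPKM, from 4 and 2. Its intervals included 1 in all comparisons and the widest of those between the diets in a single kind of RNA ran from 0.00390 to 4.42 (light fraction). Tlr4, the lipopolysaccharide receptor (5:82587419-82601052), was at 1.67 FPKM in CD and 1.46 FPKM in WD total RNA, from 6 and 5 fragments. It was at 1.22 and 1.69 FPKM in the light fraction, from 3 and 9 fragments, and at 0.875 and 0.427 FPKM in the heavy fraction, from 2 fragments and 1. At this depth no difference between the diets was detectable for either receptor.

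Myd88, the adaptor that most Toll-like receptors and the interleukin-1 receptor share (8:128022472-128026841), was lower in the WD than in the CD library in all 3 kinds of RNA. In total RNA its level was 14.0 FPKM in CD and 6.48 FPKM in WD, from 36 and 16 inferred fragments, and the ratio was 0.465 (0.241 to 0.859). The light fraction held 17.6 FPKM in CD and 12.8 FPKM in WD, from 31 and 49 fragments, a ratio of 0.727 (0.454 to 1.18). The heavy fraction held 15.2 and 11.3 FPKM, from 25 and 19 fragments, a ratio of 0.742 (0.386 to 1.40). The difference was thus clear of counting error in total RNA and not in either fraction.

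Irak1 encodes a kinase that is recruited to MyD88. Its locus (X:156716603-156725977) bore the symbol of Irak1 joined with that of the microRNA Mir5132, and a small nucleolar RNA locus listed at 0 in every library lay at the same position. The joined locus was at 18.5 FPKM in CD and 17.8 FPKM in WD total RNA, at 49.8 and 38.0 FPKM in the light fraction and at 8.92 and 11.0 FPKM in the heavy fraction. Its FPKM was lower in the heavy than in the light fraction in both diets. The heavy to light ratio was 0.179 in CD (0.104 to 0.293) and 0.290 in WD (0.181 to 0.444). Since FPKM are relative within a library, this does not show which fraction held most of its RNA. Its inferred fragment numbers did not match the Cufflinks bounds, so these intervals are uncertain, and it enters none of the counts over the 9 genes.

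The kinase genes Ikbkb and Map3k14 showed unlike patterns. Ikbkb, the catalytic IKKβ subunit of the IκB kinase complex (16:74177214-74230815), was at 6.53 FPKM in CD and 10.9 FPKM in WD total RNA, from 25 and 40 inferred fragments. The ratio was 1.67, and its interval of 0.990 to 2.88 narrowly included 1. With all libraries brought to 1 common sum over named loci, the interval lay above 1. In the light fraction Ikbkb was at 9.17 FPKM in CD and 5.97 FPKM in WD, from 24 and 34 fragments, a ratio of 0.652 (0.375 to 1.15). In the heavy fraction it was at 5.74 and 6.81 FPKM, from 14 and 17 fragments, a ratio of 1.19 (0.550 to 2.60).

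Map3k14, which encodes the NF-κB-inducing kinase of the noncanonical arm (10:91303427-91353601), had the lowest mean level of the 9. It was at 1.75 FPKM in CD and 0.228 FPKM in WD total RNA, which stand for 8 inferred fragments and 1 fragment. The ratio was 0.131 (0.00295 to 0.975), and the interval included 1 after the libraries were rescaled to the same sum. In the light fraction it was at 1.92 and 0.294 FPKM, from 6 and 2 fragments, and in the heavy fraction at 0.343 and 1.34 FPKM, from 1 fragment and 4. The heavy fraction was the only one of the 3 kinds of RNA in which the WD value was the higher, with an interval of 0.386 to 192 for the ratio of 3.90. All Map3k14 values rest on 8 fragments or fewer.

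The NF-κB subunit mRNAs were among the best covered, and their intervals included 1 in every comparison between the diets. Rela (1:220992769-221003249), the subunit that carries a transactivation domain, was at 21.8 FPKM in CD and 26.1 FPKM in WD total RNA, from 56 and 64 inferred fragments, a ratio of 1.19 (0.822 to 1.74). In the light fraction it was at 25.1 and 23.1 FPKM, from 44 and 88 fragments, and in the heavy fraction at 17.2 and 13.2 FPKM, from 28 and 22. The 3 intervals of Rela included 1 and, with these fragment numbers, held no ratio above 1.74 in any kind of RNA or below 0.418. Nfkb1 (2:240773455-240866689), the precursor of the DNA-binding partner of RelA, was at 8.11 FPKM in CD and 12.0 FPKM in WD total RNA, from 34 and 48 fragments, a ratio of 1.48 (0.932 to 2.36). It was at 5.58 and 4.98 FPKM in the light fraction, from 16 and 31 fragments, and at 7.50 and 7.32 FPKM in the heavy fraction, from 20 in each, so the WD value was above the CD value in total RNA only, within counting error.

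Nfkbia, the inhibitor IκBα (6:76267227-76270457), stood out in the light fraction. It was at 4.69 FPKM in CD and 19.8 FPKM in WD there, from 5 and 46 inferred fragments, a ratio of 4.23 (1.69 to 13.6). In total RNA the level was 5.77 FPKM in CD and 7.37 FPKM in WD, from 9 and 11 fragments, a ratio of 1.28 (0.481 to 3.49). In the heavy fraction it was 9.07 and 13.8 FPKM, from 9 and 14 fragments, a ratio of 1.52 (0.612 to 3.98). The WD value was the higher in all 3 kinds of RNA, and the light fraction interval alone lay above 1. Nfkbia was the only one of the 9 with a ratio of at least 1.5 in the light fraction.

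Over the 9 genes, the light fraction values were mostly lower in WD. The median log2 ratio was −0.46, beside 0.017 over all loci, with 2 genes higher and 7 lower. A ratio of at least 1.5 was seen for 1 gene (25.9% of all loci), and a ratio of at most 0.75 for 5 genes (26.8% of all loci), namely Tlr2, Cd14, Myd88, Ikbkb and Map3k14. The interval lay above 1 for 1 gene (7.53% of loci) and below 1 for 2 genes (7.03% of loci). The WD light library was the deepest, at 2.34 times the depth of the CD heavy library, and its FPKM summed to more over loci with a symbol. Rescaling all libraries to the same sum moved the all-loci median by −0.31 in the light fraction, by 0.30 for ribosome density and by less than 0.1 in total RNA and the heavy fraction. After that rescaling the intervals of Myd88 and Ikbkb lay below 1 in the light fraction as well, beside those of Cd14 and Map3k14, and that of Nfkbia stayed above 1.

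The heavy fraction showed no difference between the diets beyond counting error for any of the 9 genes. The median log2 ratio was −0.034, beside −0.015 over all loci, with 4 genes higher and 5 lower in WD. A ratio of at least 1.5 was reached by 2 genes, Map3k14 and Nfkbia (21.7% of all loci), and one of at most 0.75 by 3 genes, Tlr2, Tlr4 and Myd88 (25.8% of all loci). All 9 intervals included 1. Over the loci for which it could be computed, the interval lay above 1 for 2.77% and below 1 for 2.47%.

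Where each mRNA sat in the gradient, relative to other loci, was described by its heavy to light ratio of FPKM within a diet. Over all loci the median log2 of this ratio was 0.012 in CD and 0 in WD. In CD the ratio was above 1 for 4 of the 9 genes (50.2% of all loci), namely Tlr2, Cd14, Nfkb1 and Nfkbia, and in WD for 5 of the 9 (48.5% of all loci), where Ikbkb and Map3k14 joined and Nfkbia left. In WD the ratio of Cd14 was 5.13 (2.12 to 13.6) and that of Rela 0.570 (0.340 to 0.918), and these were the only intervals within a diet that did not include 1 on the deposited scale. The share of all loci with such an interval was not computed. After rescaling to the same sum the interval of Rela included 1 (0.421 to 1.14), and that of Cd14 did not. In CD the ratio was 1.07 (0.441 to 2.61) for Cd14 and 0.683 (0.410 to 1.12) for Rela. Nfkbia had a ratio of 1.93 in CD and 0.694 in WD. Myd88 had nearly the same ratio in both, 0.866 in CD and 0.884 in WD, and the latter lies above 1 once the libraries are rescaled to the same sum.

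**Figure D3:**
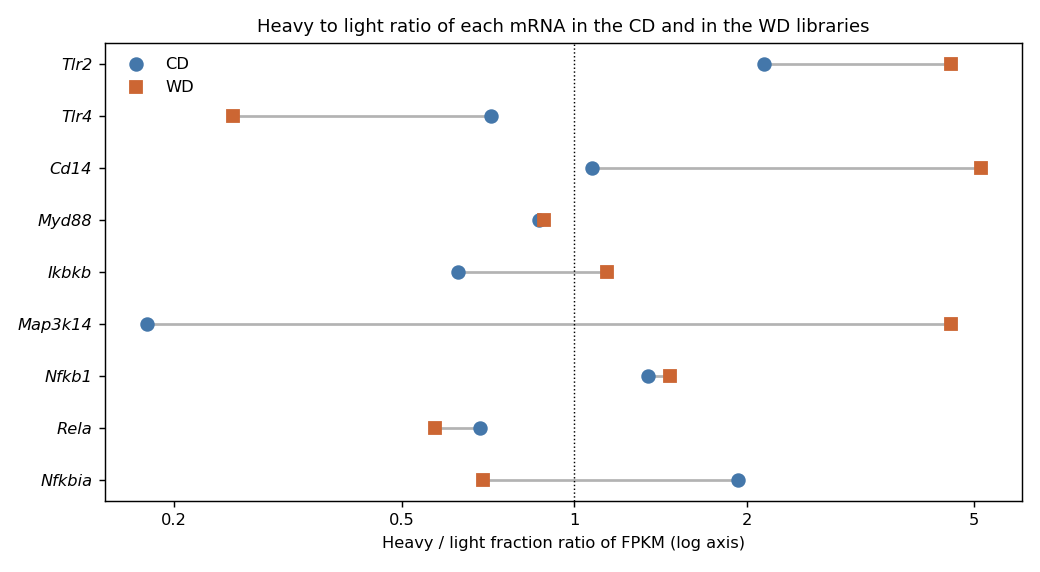
Heavy to light fraction ratio of FPKM (log axis) for each gene in the CD (circles) and WD (squares) libraries, joined by a line, with the dotted line at a ratio of 1. The lines of Cd14, from 1.07 to 5.13, and of Map3k14, from 0.179 to 4.56, are the longest, and those of Myd88 and Nfkb1 are the shortest.

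Ribosome density was taken as the study did, as the heavy to light ratio compared between the diets, here written as WD over CD. It was higher in WD for 6 genes and lower for 3, with a median log2 ratio of 0.13, beside −0.021 over all loci. The ratio was at least 1.5 for 4 genes (Tlr2, Cd14, Ikbkb and Map3k14; 27.7% of all loci) and at most 0.75 for 2 genes (Tlr4 and Nfkbia; 36.1% of all loci). The counting interval lay above 1 for 2 genes, Cd14 and Map3k14 (3.95% of loci), and below 1 for none of the 9 (3.28% of loci). Several of these ratios rest on few fragments, since Tlr2, Tlr4 and Map3k14 had 9 fragments or fewer in every library and Nfkbia had 5 in the CD light fraction.

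For Cd14 the ratio of ribosome density was 4.78 (1.31 to 17.8), and for Map3k14 it was 25.5 (1.14 to 1457), an interval widened by the few fragments. In both genes the light fraction was lower in WD and the heavy fraction higher. The ratio was 1.82 for Ikbkb (0.692 to 4.83), 0.359 for Nfkbia (0.0825 to 1.46) and 0.834 for Rela (0.406 to 1.71), and the sign for Rela turns when libraries are rescaled, to a log2 ratio of 0.067. Myd88 and Nfkb1 had ratios near 1, at 1.02 (0.451 to 2.30) and 1.10 (0.422 to 2.84), and Tlr4 had one of 0.354 with an interval of 0.00541 to 10.4. Tlr2 shows how depth enters. Its heavy and light fragments were 4 and 2 in CD and 2 and 1 in WD, and the density ratio was 2.12, the same as for any gene with equal fragment numbers in all 4 fraction libraries.

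The direction for several genes depended on what the heavy fraction was compared with. With the heavy fraction set against total RNA, the log2 ratio of Cd14 was −0.56 instead of 2.22, since Cd14 was 2.17 times as high in WD total RNA but only 1.46 times in the heavy fraction. Tlr2 (−1.42), Ikbkb (−0.49) and Nfkb1 (−0.59) turned negative as well, and Nfkbia turned positive (0.25). Map3k14 kept its direction, at 4.19, with an interval of 0.970 to 1646 for the ratio. No interval of the 9 genes was free of 1 in this measure. The plot of both measures shows this contrast for Cd14.

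**Figure D4:**
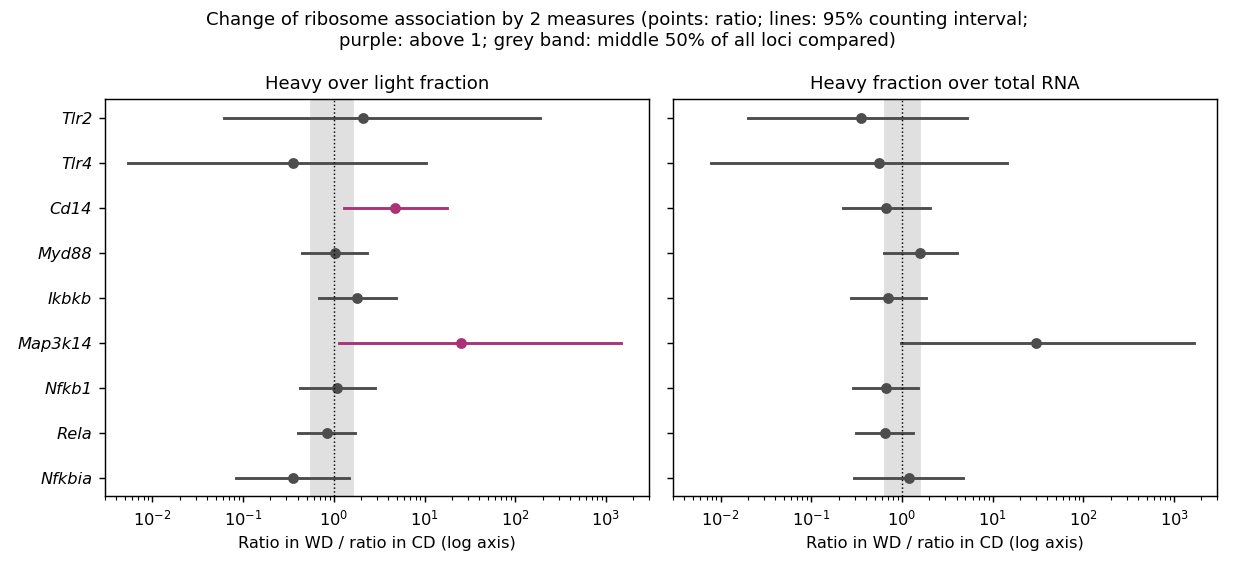
Ratio between the diets (WD over CD, log axis) of the heavy to light fraction (left) and of the heavy fraction to total RNA (right) for each gene, with 95% counting intervals as lines. The grey band holds the middle 50% of all loci compared. The interval of Cd14 lies above 1 on the left (4.78) and includes 1 on the right (0.674), where its point lies below 1.

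A list of steatosis genes that the study chose on these same libraries holds Cd14, Tlr2, Ikbkb and Map3k14 for ribosome density and Cd14 and Ikbkb for abundance, and Lbp for both. Their direction here is therefore not independent evidence.

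Further genes of the pathway were taken from role lists of 76 genes, of which 71 were found and 49 averaged 1 FPKM or more. Their medians lay near 0, with a log2 ratio of 0.027 for abundance and 0.0099 for ribosome density. In abundance 8 of the 49 had a ratio of at least 1.5 and 13 one of at most 0.75, which are 16.3% and 26.5%, beside 17.7% and 22.7% of all loci. For ribosome density these were 16 and 17 genes, 32.7% and 34.7%, beside 27.7% and 36.1% of all loci. These shares lay near those of all loci. An abundance ratio of at least 1.5 was found for 4 of 7 ligand capture proteins and receptors, 1 of 12 adaptors and proximal kinases, none of 8 genes of the kinase complex and the noncanonical arm, 1 of 3 subunit genes, 1 of 8 inhibitors and 1 of 11 targets.

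The most abundant of these genes was Lbp, the plasma protein that carries lipopolysaccharide to CD14. It was at 40.4 FPKM in CD and 75.9 FPKM in WD total RNA, at 20.1 and 16.4 FPKM in the light fraction and at 79.6 and 124 FPKM in the heavy fraction. As for Cd14, the WD value was the higher in total RNA and the heavy fraction and the lower in the light fraction. No fragment numbers that matched the Cufflinks bounds were found for Lbp, so no interval is given. Ly86, which encodes a partner of the TLR4-like receptor RP105, was listed at 0 in CD total RNA and at 7.19 FPKM in WD, from 7 fragments. Its abundance interval lay above 1, as it did for 1 of the 33 of these 49 genes that had an interval (2.87% of all loci), and for none of the 33 did it lie below 1 (2.81%). Sarm1, an adaptor under the limit of 1 FPKM, with 7 fragments in CD total RNA and none in WD, had an interval that ended at 0.725 and is named for that reason. Ly86 was at 7.19 FPKM in CD and 2.64 FPKM in WD in the light fraction, and at 6.18 and 10.6 FPKM in the heavy fraction.

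Among adaptors and proximal kinases, Tirap, which bridges TLR4 and MyD88, was at 6.34 FPKM in CD total RNA and listed at 0 in WD, from 4 fragments and none. Tab2, an adaptor of the kinase TAK1, was at 36.2 and 36.9 FPKM in total RNA and at 59.2 FPKM in CD and 29.3 FPKM in WD in the light fraction. Tab3, its homolog, was at 4.50 and 1.88 FPKM in total RNA and was listed at 0 in the WD heavy fraction, against 1.41 FPKM in CD. Sigirr, a negative regulator of TLR and interleukin-1 signaling that is named after its values were seen, had a ribosome density interval above 1, the only one of 32 genes with an interval, a share near the 3.95% of all loci. None of the 32 had one below 1 (3.28%). Sigirr was at 24.8 and 16.5 FPKM in the light fraction and at 11.8 and 31.8 FPKM in the heavy fraction, and its density ratio had an interval of 1.66 to 10.1.

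In the kinase complex and the noncanonical arm, 7 genes had a light fraction interval, which lay above 1 for 2 of them (7.53% of all loci) and below 1 for 1 (7.03%). Over all lists these were 2 and 1 of 33 genes, and the 3 are named for that reason. Ltbr, the lymphotoxin β receptor, was at 25.3 FPKM in CD and 57.1 FPKM in WD, and Tbk1 was listed at 0 in CD and at 3.17 FPKM in WD. Birc2, a ubiquitin ligase that restrains the noncanonical arm, was at 17.2 FPKM in CD and 7.13 FPKM in WD. Of the other subunit genes, Relb was listed at 0 in CD and at 25.2 FPKM in WD total RNA, a difference with no fragment numbers that matched the Cufflinks bounds. Rel was at 2.23 and 2.91 FPKM in total RNA and was listed at 0 in the CD heavy fraction, against 2.56 FPKM in WD. An interval could be computed for 4 of the 8 other inhibitor genes compared, and it included 1 in every comparison.

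The inflammatory target genes gave no common direction. Of 11 that could be compared, 6 were higher and 5 lower in WD total RNA, with a median log2 ratio of 0.054. Tnf, Il6, Cxcl2 and Ptgs2 were listed at 0 in all 6 libraries. Sod2, the mitochondrial superoxide dismutase, was at 22.5 FPKM in CD and 21.6 FPKM in WD total RNA, and Ier3, an immediate-early gene, was at 19.2 and 23.2 FPKM there. Socs3, a feedback inhibitor of cytokine signaling, was at 2.64 FPKM in CD total RNA and listed at 0 in WD, from 2 fragments and none. Lcn2, an iron-binding acute-phase protein, was listed at 0 in CD total RNA and at 2.66 FPKM in WD, and at 4.00 FPKM in the CD heavy fraction against 0 in WD. Tnfrsf1a, the main receptor of tumor necrosis factor, was at 35.7 and 38.7 FPKM in total RNA, with an interval for the ratio that included 1.

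The loci whose pattern over the 6 libraries was most like that of Rela were Chmp5, Cacybp and Fam208a, with Pearson correlations of 0.994, 0.988 and 0.987 of the log2 FPKM. Of 4068 loci compared with Rela, 53 had a correlation above 0.95. These are descriptions over 6 libraries that share the same pools of rats.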

How the data were processed

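Total RNA and the light and heavy gradient fractions of CD and WD livers were each sequenced as 1 library from pooled RNA of 3 rats, after ribosomal RNA depletion. Reads were mapped by the authors with TopHat to the assembly Rnor_6.0, and the deposited values are FPKM from Cufflinks and Cuffnorm, with lower and upper bounds, for each locus. The methods describe another alignment route for ribosome-bound reads, and whether the fractions took it is not given in the sources used here, nor is the annotation. The authors' differential tests were not rerun, since 1 library per group allows none.

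The 10 genes and all lists were chosen with earlier results of these data known. Log2 ratios were computed from the deposited FPKM after adding 0.1 FPKM, and the thresholds of 1.5 and 0.75 are those of the study for ribosome density, applied to WD over CD. Ratios given with an interval are of FPKM with nothing added. Background shares are over the 10201 named loci that had a valid estimate in all libraries and averaged 1 FPKM or more. Other pathway genes were named where they had the 2 highest or 2 lowest ratios of abundance or ribosome density or the 5 highest means, and for Rela the 3 most correlated loci that averaged 10 FPKM or more.

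Whole fragments were inferred as the numbers that 1 step per gene and 1 factor per library explain. Of 12380 loci with a value above 0 in 3 libraries or more, 9702 (78.4%) received such numbers, against 0.460% once 1% of random jitter had been added. Multiples were settled by the Cufflinks upper bounds, which all 9 genes matched to within 1.5%, as did 50.8% of the loci compared. Simulated data were built for 7382 loci that had already received numbers, as whole numbers times 1 step and 1 factor. Of those with a value above 0 in 3 libraries or more, 98.0% got numbers, all of them right up to a common multiple. Such a simulation checks the code and cannot show that the deposited values follow that model. Loci with matching bounds summed to between 77618 and 189878 fragments per library, with a median between 7 and 20 for the loci compared. Intervals at 95% were Clopper-Pearson for 2 libraries and exact conditional for 4. Scripts ran under Python 3.11.15 with scipy 1.17.1 and numpy 2.4.6, and with pandas 2.3.3 for tables and matplotlib 3.10.9 for plots. Alternatives were other pseudocounts, rescaled libraries, other filters on low values, whole fragments and the heavy fraction over total RNA.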

Additional observations from a re-analysis of the deposited data

Results flagged for a closer look

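For 2 of the 9 genes the WD to CD ratio was below 1 in the light and above 1 in the heavy fraction, with a ribosome density interval above 1. Over all loci that interval lay above 1 for 3.95%, whatever the direction in each fraction. The heavy fraction ratio alone was within counting error for both, with intervals of 0.667 to 3.33 for Cd14 and 0.386 to 192 for Map3k14. For Cd14 the log2 ratio between the diets was −1.67 in the light fraction and 0.55 in the heavy fraction, a difference of 2.22. For Map3k14 it was −2.36 and 1.70, a difference of 4.06. With 1 library per group, the difference was not tested against variation between rats. Map3k14 rests on 6, 2, 1 and 4 fragments in the 4 fraction libraries, and Cd14 on 12, 8, 12 and 18.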

How the results depend on the processing

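Of 207 values of single genes under alternatives, 7 turned in sign, and Cd14 was the only one of these whose interval as reported did not include 1. The ribosome density median of the 9 genes was −0.56 in place of 0.13 with the heavy fraction over total RNA, and Cd14 turned from 2.22 to −0.56, with an interval that included 1. The medians of the other comparisons kept their sign under every alternative run. At a mean of at least 10 FPKM, the share of loci with a ratio of at least 1.5 was 8.77% for abundance, 17.1% for the light fraction and 13.3% for the heavy fraction. Whole fragments and the limit to the 5 genes with at least 10 fragments in both total RNA libraries were chosen after seeing the data, and the abundance median of those 5 was 0.56. No paired analysis was possible because each group holds 1 library, and leaving out a replicate was not possible for the same reason. At this depth 28 of the 36 intervals between the diets included 1. Over all loci with an interval, it lay above 1 for 2.77% to 7.53% and below 1 for 2.47% to 7.03%, depending on the comparison.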
